A study of Mus musculus with 21 samples.

Results

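Genes of T cells, natural killer (NK) cells, B cells and plasma cells were followed through the mouse hippocampus after ethanol. They are Jchain, Ly9, Cxcr6, Cd3e, Cd3d, Cd8a, Cd4, Nkg7, Cd79b and Mzb1, 10 of the 24498 genes in the counts table. They were picked because Jchain and Ly9 stood higher in dorsal hippocampus of the Acss2 knockdown arm than in its controls, so that comparison is described here without a test. All 10 were found in the table by symbol. Together they gave 749 reads across 15 libraries from ethanol-treated mice, those that exceeded 1000000 gene reads.

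The mice were males aged 8 weeks, and the treated ones received 2 g of ethanol per kg intraperitoneally (20%, in saline). In the knockdown arm an AAV2/9 vector carried a short hairpin RNA against Acss2 under the U6 promoter and EGFP under the CMV promoter. Acss2 makes acetyl-CoA from acetate, a product of ethanol breakdown. Per the sample protocol it was injected into the dorsal hippocampus, while the series text speaks of a systemic injection, and the vector of the control arm is undescribed. The ethanol groups comprised dorsal knockdown (5 libraries), ventral knockdown (4), dorsal control (3), ventral control (4) and total-hippocampus knockdown (1). Untreated mice gave 2 dorsal knockdown and 2 dorsal control libraries. No strain is named. Replicates are not stated to be separate animals, and p-values cover the spread among libraries only, which may be technical.

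T cells recognise peptide on major histocompatibility molecules through an antigen receptor whose signal runs through the CD3 chains, and the coreceptors CD8 and CD4 divide them into cytotoxic and helper classes. B cells carry a membrane antibody that signals through CD79 chains, and plasma cells, their descendants, secrete antibody. These cells are rare in healthy brain tissue, where they are found mostly in the meninges, the choroid plexus and the vessels, and they enter the tissue during infection and inflammation. In bulk tissue, fewer cells of a type and less RNA per cell cannot be told apart.

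Gene reads numbered 2819837 to 13240179 in the 15 libraries described. The ethanol libraries dorsal knockdown 5 (5021 gene reads) and ventral knockdown 1 (8744) had 0 reads of the 10 genes and were left out. The 4 untreated libraries held 4279 to 221847 gene reads, 0.991% to 1.43% of their uniquely aligned reads, and entered no comparison. Dorsal control 1 is the shallowest of the 15. A gene with 0 reads there could have stood at up to 1.06 CPM (reads per 1000000 gene reads), and at up to 0.227 CPM in dorsal control 3, the deepest library, taking 3 reads as the limit. Hippocampal neuron markers were present in every library: the summed level of 9 such genes ran from 7044 to 11361 CPM. Acss2 stood at 30.5 ± 14.4 CPM in dorsal knockdown and 52.1 ± 8.53 CPM in dorsal control (SD, n = 4 and 3), at 43.9 ± 21.0 and 52.5 ± 6.89 CPM in ventral knockdown and control (SD, n = 3 and 4), and at 56.1 CPM in total hippocampus. Single values of the arms overlapped in both regions: dorsal knockdown 2 held 48.3 CPM, above the 42.2 CPM of dorsal control 1.

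Promoters are shown for 3 genes of different cells: Jchain, the most read of the 10 and a plasma cell gene, Nkg7 of cytotoxic cells and Cd3d of T cells. Each runs from 250 bases before to 50 bases after the annotated start, 5′ to 3′ on the gene's strand, from RefSeq on GRCm38.p6, and capitals mark the motif matches named after them.
Jchain (chr5:88527848-88528147, minus strand): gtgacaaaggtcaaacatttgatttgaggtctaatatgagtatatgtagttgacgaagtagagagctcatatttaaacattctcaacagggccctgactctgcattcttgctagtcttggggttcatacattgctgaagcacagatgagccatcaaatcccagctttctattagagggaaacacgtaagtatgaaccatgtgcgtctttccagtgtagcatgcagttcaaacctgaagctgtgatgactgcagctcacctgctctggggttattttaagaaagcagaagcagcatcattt
Nkg7 (chr7:43436888-43437187, plus strand): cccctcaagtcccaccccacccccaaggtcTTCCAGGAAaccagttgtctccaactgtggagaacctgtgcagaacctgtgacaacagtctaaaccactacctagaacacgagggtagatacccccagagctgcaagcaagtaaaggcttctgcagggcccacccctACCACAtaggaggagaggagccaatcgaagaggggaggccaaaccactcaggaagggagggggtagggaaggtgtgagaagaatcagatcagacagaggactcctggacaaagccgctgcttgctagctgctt
Cd3d (chr9:44981536-44981835, plus strand): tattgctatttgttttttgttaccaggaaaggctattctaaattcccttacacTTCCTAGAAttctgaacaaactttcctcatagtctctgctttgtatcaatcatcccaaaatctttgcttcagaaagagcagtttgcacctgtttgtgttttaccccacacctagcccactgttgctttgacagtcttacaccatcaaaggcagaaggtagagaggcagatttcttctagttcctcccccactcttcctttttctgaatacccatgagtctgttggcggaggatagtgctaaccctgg

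Promoter sequences could be matched for 6 of the 10 genes: Jchain, Cd8a, Nkg7, Cd3d, Cd3e and Cxcr6. Both strands of each were searched for 5 motifs. The pattern TTCNNNGAA, the core of STAT binding sites induced by interferon gamma, occurred in Nkg7 (TTCCAGGAA) and Cd3d (TTCCTAGAA), and in 8.30% of 32851 mouse promoters of the same length. The Runx core TGTGGT, read as ACCACA on the opposite strand, occurred in Nkg7 and Cxcr6 and in 16.8% of all promoters. The octamer ATGCAAAT of antibody gene promoters, the Ets core CCGGAAG and the interferon-stimulated response element were in 0 of the 6, against 1.74%, 8.86% and 3.44% of all promoters. Matches in Nkg7 and Cd3d lie apart from each other, with no overlap between motifs. They describe letters in these windows only.

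Jchain, the joining chain that links antibody units into dimers and pentamers, gave the most reads of the 10 genes, 268 or 35.8% of their total (ENSMUSG00000067149.6, chromosome 5, 88519809 to 88527891, minus strand, mm10). It had 12, 54, 67 and 65 reads in dorsal knockdown 1 to 4, or 1.39, 6.20, 7.42 and 8.76 CPM. Dorsal control 1 to 3 had 0, 3 and 7 reads, or 0, 0.278 and 0.529 CPM. Dorsal knockdown 2, 3 and 4 were high, dorsal knockdown 1 was closer to the controls, and the groups did not overlap. The exact 95% counting interval of dorsal knockdown 1, 0.717 to 2.43 CPM, overlapped that of dorsal control 3, 0.213 to 1.09 CPM. Pooled over libraries the level was 15.7 times the control level (95% counting interval 8.38 to 33.3, which leaves out the spread among libraries). The log2 fold change fitted by edgeR was 4.01.

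In ventral hippocampus Jchain gave 23, 5 and 8 reads in knockdown 2 to 4, or 2.98, 0.556 and 0.752 CPM. Ventral control 1 to 4 gave 3, 2, 9 and 4 reads, or 0.602, 0.571, 0.920 and 0.442 CPM. Ventral knockdown 2 alone stood above the controls, and the groups overlapped. The total-hippocampus knockdown library held 6 reads, 0.655 CPM, within the range of the ventral controls. By group mean Jchain stood in the order dorsal knockdown (5.94 ± 3.21 CPM, n = 4), ventral knockdown (1.43 ± 1.35, n = 3), ventral control (0.634 ± 0.203, n = 4) and dorsal control (0.269 ± 0.264, n = 3; SD throughout). The single values of ventral knockdown and ventral control overlapped, and dorsal knockdown 1 at 1.39 CPM lay below ventral knockdown 2 at 2.98 CPM.

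Ly9 is a receptor of the SLAM family on T, B and NK cells (ENSMUSG00000004707.14, chromosome 1, 171588624 to 171607410, minus strand, mm10). Its span overlaps that of Cd244a, another SLAM receptor gene on the opposite strand, with 0 exon bases shared. Ly9 gave 4, 22, 69 and 40 reads in dorsal knockdown 1 to 4, or 0.463, 2.53, 7.64 and 5.39 CPM. Dorsal controls gave 0, 0 and 2 reads, the last of them 0.151 CPM in dorsal control 3. Groups did not overlap, and dorsal knockdown 1 was again the lowest of its arm. Against the 2 control reads the pooled ratio was 53.6, with a counting interval of 14.6 to 447. The fitted log2 fold change was 5.51, and it was 7.94 without dorsal control 3, the control that holds both of these reads.

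Ventral knockdown 2 to 4 gave 21, 5 and 8 Ly9 reads, or 2.72, 0.556 and 0.752 CPM. Ventral control 1 to 4 gave 2, 13, 3 and 4 reads, or 0.401, 3.71, 0.307 and 0.442 CPM. Ventral control 2 was the highest ventral library, above ventral knockdown 2 and above dorsal knockdown 1 and 2. Ly9 and Jchain parted there: Jchain in ventral control 2 rested on 2 reads. Total hippocampus had 2 Ly9 reads, 0.218 CPM. Group means were 4.01 ± 3.16 CPM in dorsal knockdown, 1.34 ± 1.20 in ventral knockdown, 1.22 ± 1.66 in ventral control and 0.0504 ± 0.0872 in dorsal control (SD, n = 4, 3, 4 and 3). The middle groups differed by less than their spread.

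**Figure D1:**
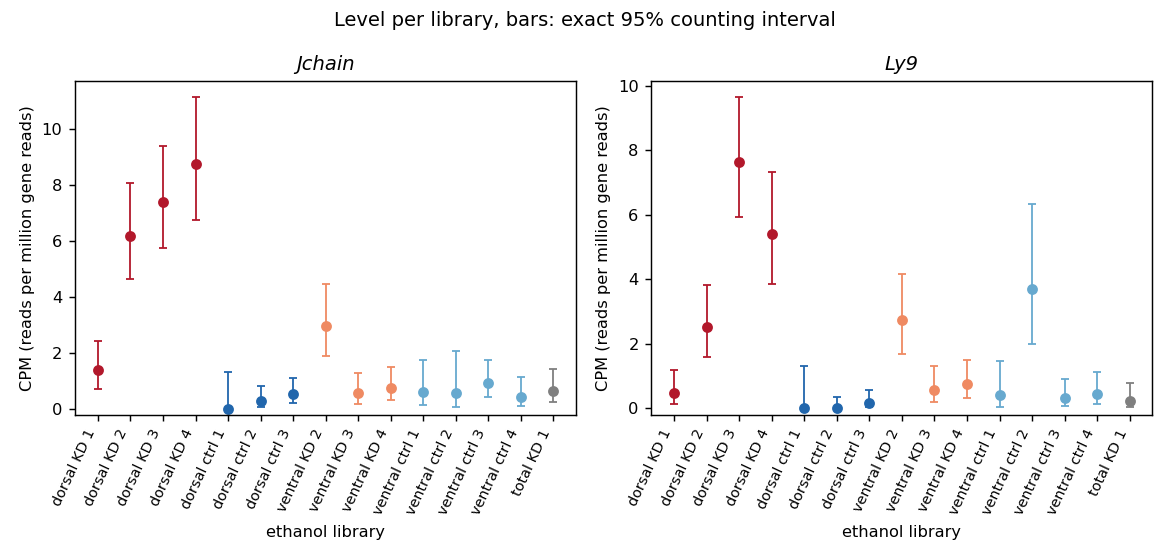
Level of Jchain (left) and Ly9 (right) in CPM on the vertical axis for each of the 15 ethanol libraries, with exact 95% counting intervals as bars (KD, knockdown; ctrl, control). Dorsal knockdown 2, 3 and 4 lie highest for Jchain, between 6.20 and 8.76 CPM, while for Ly9 ventral control 2 at 3.71 CPM lies above dorsal knockdown 2.

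The T cell receptor complex was read at the limit of detection. Cd3e and Cd3d encode chains of CD3, which carry the signal of the T cell receptor. Cd3e (ENSMUSG00000032093.7, chromosome 9, 44998740 to 45009627, minus strand, mm10) gave 0, 1, 7 and 5 reads in dorsal knockdown 1 to 4 and 0 in each dorsal control. Cd3d (ENSMUSG00000032094.8, chromosome 9, 44981786 to 44987339, plus strand, mm10) gave 1, 2, 9 and 0 reads in dorsal knockdown and 0 in each dorsal control. Dorsal knockdown 3 was the highest library for both, and dorsal knockdown 4 had Cd3e reads with 0 of Cd3d. A limit of 3 reads was taken over the 3 control libraries together. The observed pooled levels were 3.44 times that limit for Cd3e and 3.18 times for Cd3d, leaving out the counting error of the knockdown reads. In ventral hippocampus Cd3e had 2 reads over 3 knockdown and 3 over 4 control libraries, and Cd3d 2 and 1.

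Cd8a, the coreceptor chain of cytotoxic T cells, showed the widest range of the T cell genes (ENSMUSG00000053977.13, chromosome 6, 71373427 to 71379173, plus strand, mm10). It gave 0, 4, 32 and 6 reads in dorsal knockdown 1 to 4, or 0, 0.459, 3.54 and 0.809 CPM, and 0 reads in each dorsal control. Dorsal knockdown 3 held 76.2% of the 42 dorsal knockdown reads. The observed pooled level was 11.1 times the 3-read limit of the controls. Ventral knockdown 2 to 4 gave 8, 1 and 3 reads, and ventral control 1 to 4 gave 1, 3, 1 and 1. Ventral controls therefore held Cd8a reads in 4 of 4 libraries and dorsal controls in 0 of 3.

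Cd4, the coreceptor of helper T cells, had another pattern (ENSMUSG00000023274.14, chromosome 6, 124864692 to 124888221, minus strand, mm10). It was the only one of the 10 genes with reads in all 15 libraries. Dorsal knockdown 1 to 4 gave 2, 1, 12 and 21 reads, or 0.231, 0.115, 1.33 and 2.83 CPM, and dorsal control 1 to 3 gave 1, 7 and 7, or 0.355, 0.649 and 0.529 CPM. Dorsal knockdown 1 and 2 were below all 3 controls, and dorsal knockdown 3 and 4 were above them. Dorsal controls thus held 15 Cd4 reads beside 0 reads of Cd3e, Cd3d and Cd8a. Dorsal knockdown 3 had more Cd8a than Cd4 reads (32 and 12) and dorsal knockdown 4 fewer (6 and 21). The pooled dorsal ratio of Cd4 was 1.91 (counting interval 1.02 to 3.75, which leaves out the spread among libraries).

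Cxcr6 is the receptor for the chemokine CXCL16 and marks T cells that reside in tissues (ENSMUSG00000048521.8, chromosome 9, 123806475 to 123811760, plus strand, mm10). It overlaps the span of Fyco1 on the opposite strand, with 0 exon bases shared. Cxcr6 gave 0, 4, 15 and 7 reads in dorsal knockdown 1 to 4 and 0, 0 and 1 in dorsal control. Only dorsal knockdown 1 lay within the range of the controls. The pooled ratio was 20.7 against that 1 control read, with a counting interval of 3.39 to 847. Its ligand gene Cxcl16 stood at 0.694, 3.68, 12.4 and 3.37 CPM in dorsal knockdown 1 to 4 and 0.355, 0.649 and 0.982 CPM in dorsal control, and at 8.85 CPM in ventral control 2. Ventral libraries had 0 to 2 Cxcr6 reads each, 5 in knockdown and 2 in control.

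Nkg7, a granule protein of NK and cytotoxic T cells, gave 0, 4, 19 and 6 reads in dorsal knockdown 1 to 4 and 0 in each dorsal control (ENSMUSG00000004612.9, chromosome 7, 43437073 to 43438249, plus strand, mm10). Dorsal knockdown 3 held 65.5% of them, and the observed pooled level was 7.68 times the 3-read control limit. Ventral hippocampus went the other way: 1, 0 and 1 reads in knockdown 2 to 4 against 1, 2, 1 and 3 in control 1 to 4. Means there were 0.0746 ± 0.0670 and 0.301 ± 0.203 CPM (SD, n = 3 and 4), and single libraries overlapped.

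Cd79b, a signalling chain of the B cell receptor (ENSMUSG00000040592.11, chromosome 11, 106311341 to 106314762, minus strand, mm10), gave 0, 1, 7 and 2 reads in dorsal knockdown 1 to 4 and 0, 1 and 2 in dorsal control. Its pooled ratio was 2.65, with a counting interval of 0.682 to 14.98. Ventral knockdown 2 to 4 gave 5, 2 and 1 reads and ventral control 1 to 4 gave 1, 0, 1 and 1. Mzb1, a protein of the endoplasmic reticulum that assists antibody secretion (ENSMUSG00000024353.5), gave 0, 1, 7 and 3 reads in dorsal knockdown and 0, 1 and 2 in dorsal control, a pooled ratio of 2.91 (0.770 to 16.3). Both intervals reach below 1. Such intervals cover counting error of the pooled reads only, so they are no test of the arms, whether or not they reach 1. On GENCODE M21 the gene SPATA24 shares 57.2% of the exon bases of Mzb1 on the same strand, so Mzb1 reads could have been lost as ambiguous or counted elsewhere. Ventral libraries gave 3 Mzb1 reads in knockdown and 5 in control, 4 of these in ventral control 4.

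**Figure D2:**
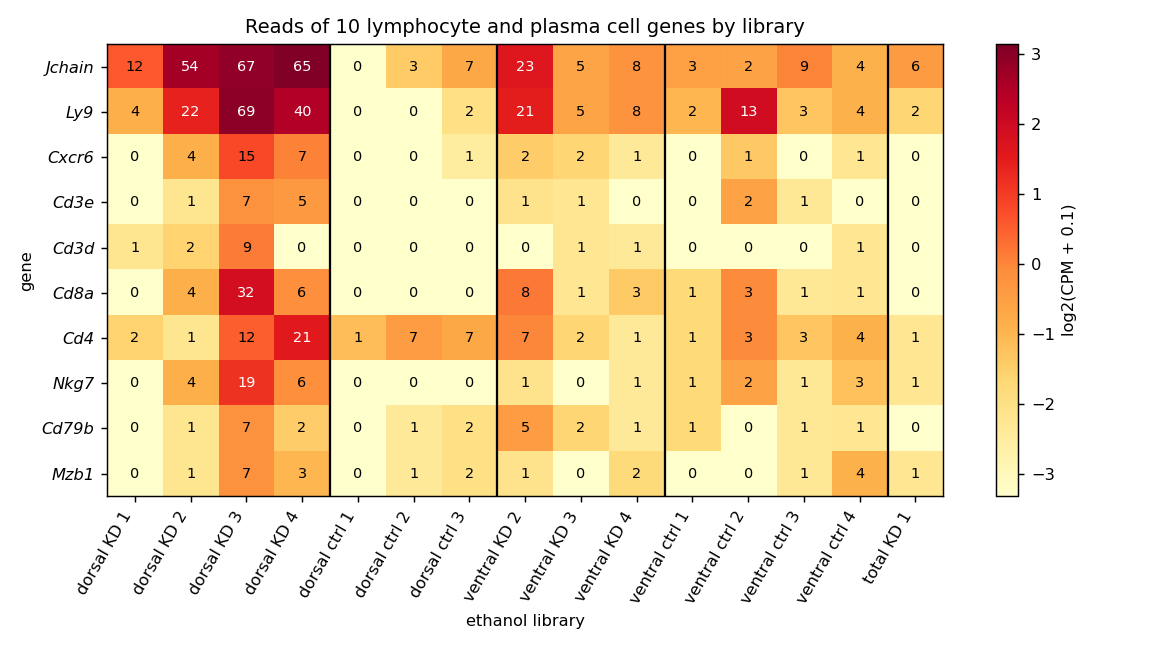
Reads of each of the 10 genes (rows) in each of the 15 ethanol libraries (columns), with colour giving log2(CPM + 0.1). Reads gather in dorsal knockdown 2, 3 and 4, while Cd3e, Cd3d, Cd8a and Nkg7 have 0 reads in all 3 dorsal controls and Cd4 has reads in every library.

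The 10 genes had higher means in dorsal knockdown than in dorsal control without exception. Every knockdown library exceeded every control for 2 of them, Jchain and Ly9, and 4 had 0 reads in all controls. Of 19125 genes with a read in these 7 libraries, 2.73% had every knockdown library above every control, and 6.12% of those with a mean of 0.1 to 5 CPM did. Genes with 0 reads in all 3 controls made up 5.88%. The median dorsal log2 fold change was 0.04 over 19775 genes fitted with no low-count filter. Since the 10 genes were picked on this contrast, these values are given beside the counts and nothing is read from them. Over all 10 genes dorsal knockdown 3 held 47.7% of the 512 dorsal knockdown reads. It was the highest of the 15 libraries for 8 genes, the exceptions being Jchain and Cd4, which were highest in dorsal knockdown 4.

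Summed over the 10 genes the level was 2.20, 10.8, 27.0 and 20.9 CPM in dorsal knockdown 1 to 4 and 0.355, 1.11 and 1.59 CPM in dorsal control 1 to 3. Ventral knockdown 2 to 4 held 8.95, 2.11 and 2.44 CPM, and ventral control 1 to 4 held 1.81, 7.42, 2.05 and 2.54 CPM. Total hippocampus held 1.20 CPM from 11 reads. Thus 5 libraries, dorsal knockdown 2, 3 and 4, ventral knockdown 2 and ventral control 2, lay between 7.42 and 27.0 CPM, and the other 10 at or below 2.54 CPM. Without dorsal knockdown 3 the dorsal knockdown mean fell from 15.2 to 11.3 CPM. Without ventral knockdown 2 the ventral knockdown mean was 2.28 in place of 4.50 CPM, and without ventral control 2 the ventral control mean was 2.13 in place of 3.45 CPM.

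Detection followed the same libraries, and depth as well. At least 1 read was found for 4, 10, 10 and 9 of the 10 genes in dorsal knockdown 1 to 4, for 1, 4 and 6 in dorsal control, for 9, 8 and 9 in ventral knockdown 2 to 4, for 6, 7, 8 and 9 in ventral control and for 5 in total hippocampus. After thinning each library to 2819837 gene reads, the number expected was 2.66, 6.21, 9.73 and 8.14 in dorsal knockdown and 1.00, 2.00 and 2.98 in dorsal control. Ventral knockdown came to 6.52, 4.22 and 4.22, and ventral control to 3.99, 6.68, 3.67 and 5.02. At equal depth dorsal knockdown 1 therefore fell within the range of the dorsal controls. The ventral arms overlapped at both depths.

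**Figure D3:**
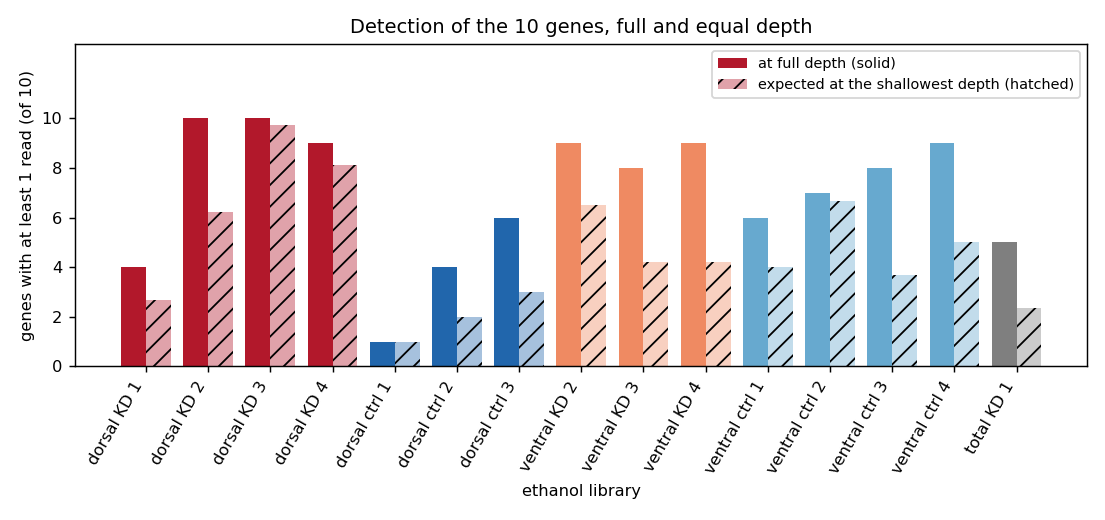
Number of the 10 genes with at least 1 read in each library (solid bars) and the number expected after thinning to 2819837 gene reads, the depth of dorsal control 1 (hatched bars). Dorsal knockdown 3 keeps 9.73 of its 10 genes at equal depth, while dorsal control 3 goes from 6 to 2.98.

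Levels were also set per length of exon, so that genes can be compared. In dorsal knockdown the mean in reads per kilobase of exon per 1000000 gene reads was 2.36 ± 1.28 for Jchain, 1.21 ± 0.954 for Ly9 and 0.923 ± 0.989 for Nkg7. Cxcr6, Cd8a, Cd4, Mzb1, Cd79b and Cd3d followed between 0.397 and 0.185, and Cd3e was lowest at 0.0959 ± 0.0957 (SD, n = 4). No neighbours in this order differed by more than their spread. In ventral controls the order began with Ly9 (0.367 ± 0.503), Nkg7 (0.330 ± 0.222) and Jchain (0.252 ± 0.0808; SD, n = 4).

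The ventral comparison was not used to pick the genes and could be tested. Jchain and Ly9 alone entered the fit over all genes, and they passed its low-count filter through the dorsal knockdown libraries: with the ventral groups alone neither passed. Their fitted ventral values are therefore given as a description. The log2 fold change of Jchain was 1.11 (SE 0.70) and that of Ly9 was 0.42 (SE 0.96) in the edgeR fit of 14578 genes. The Jchain value was 0.10 without ventral knockdown 2, and the Ly9 value was -0.51 without that library and 1.75 without ventral control 2. edgeR called 0 of the 14578 genes, or 0%, with 593 at an unadjusted p under 0.05. DESeq2 called 35, or 0.24%, 4 higher and 31 lower in knockdown.

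All 10 genes, with no filter, were compared in mean CPM by an exact two-sided permutation test over the 35 splits of the ventral libraries (n = 3 and 4, smallest possible p = 0.0286). Means were higher in knockdown for 6 genes and lower for 4. The exact p ran from 0.143 for Nkg7 to 0.971 for Cd3e and Mzb1, with 0 of 10 under 0.05 before any adjustment. It was 0.229 for Jchain (difference 0.797 CPM), 0.857 for Ly9 (0.129 CPM) and 0.486 for Cd8a (0.160 CPM). No gene had every knockdown library above every control, against 0.818% of 19082 genes with a read in these libraries and 1.36% of those with a mean of 0.1 to 5 CPM. Cd3e, Cd3d, Cxcr6, Nkg7 and Mzb1 had at most 4 reads in any ventral library.

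Partners of these genes were taken from fixed lists, leaving out the 10 themselves. As background to the counts of higher and lower genes, the median log2 fold change over all 14578 tested genes was 0.03 in the dorsal comparison. It was -0.01 in the ventral comparison. Of the other T cell genes 21 were in the table and 8 had enough reads to be tested. By mean CPM 17 of the 21 were higher and 4 lower in dorsal knockdown, and 8 were higher and 13 lower in ventral knockdown. Their sum followed Bcl11b, a transcription factor gene that neurons also express, at 91.5 ± 40.3 CPM in dorsal knockdown and 122 ± 27.0 CPM in dorsal control (SD, n = 4 and 3). The kinase genes Zap70 and Lck, which act below the T cell receptor, stood at 5.29 ± 1.75 and 2.07 ± 1.05 CPM in dorsal knockdown and at 4.46 ± 2.61 and 2.20 ± 0.840 CPM in dorsal control. The summed T cell list ran from 70.1 to 171 CPM in dorsal knockdown and from 111 to 165 CPM in dorsal control, and the arms overlapped in this sum. Cd3g and Cd247, genes of further CD3 chains, were chosen after their values were seen. Cd3g gave 0, 7, 14 and 3 reads in dorsal knockdown 1 to 4 and 0 in all dorsal controls. Cd247 gave 0, 3, 8 and 3 reads in dorsal knockdown and 0, 1 and 1 in dorsal control. In ventral knockdown and control Cd3g gave 4 and 5 reads, and Cd247 gave 3 and 6. The lists also named genes for the constant parts of the T cell receptor and of antibodies, and no level of these is given here. In the table were 21 of the 25 T cell genes listed and 11 of the 19 plasma cell genes listed.

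All 18 other NK and cytotoxic genes were in the table, 14 with a higher and 2 with a lower mean in dorsal knockdown, and 1, the chemokine gene Ccl5, had enough reads to be tested. Ccl5 stood at 0.578, 8.27, 24.1 and 22.5 CPM in dorsal knockdown 1 to 4 and at 0, 0 and 0.0755 CPM in dorsal control. It was 6.85 CPM in ventral control 2, 2.98 CPM in ventral knockdown 2 and at most 0.409 CPM in the other ventral libraries. Its reads lay mostly in dorsal knockdown, 462 against 29 in ventral knockdown and 30 in ventral control. The ventral log2 fold change of Ccl5, -0.35 (SE 1.34), is therefore given as a description. Ctsw, a protease gene of cytotoxic cells, and Il2rb, a receptor chain for interleukin, each averaged 1.01 ± 0.915 and 1.00 ± 0.958 CPM in dorsal knockdown against 0.199 ± 0.138 and 0.106 ± 0.114 CPM in dorsal control. Of this list 8 genes had 0 reads in dorsal control and 2 in dorsal knockdown. The cytotoxic genes Prf1 and Gzmb, chosen for naming after their values were seen, were near 0. They gave 2 and 9 reads in dorsal knockdown and 0 and 1 in dorsal control. Dorsal knockdown 3 held 2 of the Prf1 and 8 of the Gzmb reads. Eomes, a transcription factor gene that is also active in neurogenesis, gave the list a sum of 16.2 CPM in ventral control 4.

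Of 16 other B cell genes, 6 could be tested, and 14 had a higher and 1 a lower mean in dorsal knockdown. The most abundant were Cd74, the invariant chain of class II presentation, at 23.8 ± 24.6 against 4.36 ± 2.29 CPM, and Blnk, an adaptor of B cells and myeloid cells, at 16.4 ± 9.92 against 4.34 ± 1.66 CPM (SD, n = 4 and 3). Next came Ebf1, at 3.50 ± 1.41 against 3.30 ± 1.40 CPM, and Cd22, at 2.90 ± 2.23 against 0.225 ± 0.131 CPM. The B cell genes Ms4a1 and Pax5 were near 0, with 1 and 2 reads in dorsal knockdown. Cd79a, the other CD79 chain, gave 5 reads in dorsal knockdown and 4 in dorsal control. These last 3 were chosen for naming after their values were seen. Of the plasma cell list 11 genes were in the table, all with a higher mean in dorsal knockdown. The sizes were small: over its 6 tested genes the median dorsal log2 fold change was 0.06, beside 0.03 over all 14578 tested genes. Xbp1, Txndc5 and Pim2, genes of secretion and survival that other cells use as well, made up most of its sum, which ran from 113 to 202 CPM in dorsal knockdown and from 102 to 160 CPM in dorsal control. Xbp1 stood at 52.2 ± 22.4 and 51.9 ± 15.5 CPM there.

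The SLAM family and its adaptors, the relatives of Ly9, had higher means in dorsal knockdown for 10 of 10 genes. Cd84 stood at 7.70 ± 3.80 against 2.71 ± 0.662 CPM, Cd48 at 2.51 ± 1.30 against 0.553 ± 0.220 CPM and Slamf9 at 2.50 ± 1.79 against 0.687 ± 0.306 CPM (SD, n = 4 and 3). Cd84 and Slamf9 are also expressed by myeloid cells. In ventral hippocampus 3 of the 10 were higher and 7 lower. Fitted ventral log2 fold changes, given as a description, were 0.07 for Cd84 (SE 0.53), -0.08 for Cd48 (SE 0.86) and 0.06 for Slamf9 (SE 0.85). No list was tested in the dorsal comparison, on which the 10 genes were picked.

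Markers of some other cells moved with the 10 genes. The 5 libraries with the highest summed level of the 10 genes were also the 5 highest of 15 for microglia, interferon and antigen presentation, monocyte and neutrophil, B cell and SLAM genes. Of these 5 libraries, 4 were among the 5 highest for NK and cytotoxic, lymphocyte chemokine and pan-leukocyte genes. For plasma cell genes it was 2, and for T cell genes, whose sum followed Bcl11b, it was 1. Microglia genes summed to 423, 900, 1308 and 850 CPM in dorsal knockdown 1 to 4, to 374 to 471 CPM in dorsal control, to 632 CPM in ventral knockdown 2 and to 841 CPM in ventral control 2. Interferon and antigen presentation genes summed to 184, 835, 2335 and 950 CPM in dorsal knockdown and to 169 to 253 CPM in dorsal control. They reached 792 CPM in ventral knockdown 2 and 1498 CPM in ventral control 2. All 27 genes of that list and all 13 microglia genes had higher means in dorsal knockdown. Among their tested genes the median dorsal log2 fold change was 2.52 and 1.05, beside 0.03 over all 14578 tested genes. Monocyte and neutrophil genes ran from 9.37 to 32.0 CPM in dorsal knockdown and from 4.83 to 8.99 CPM in dorsal control, with 9 of 10 higher. The part of these cells in the result was not tested.

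Markers of blood, dendritic cells and the brain's borders were ordered otherwise. Of the same 5 libraries, 3 were among the 5 highest for dendritic cell genes, 2 for red blood cell and choroid plexus genes, and 1 for border macrophage and meningeal fibroblast genes. Red blood cell genes summed to 0.694 to 4.21 CPM in dorsal knockdown and 1.42 to 2.41 CPM in dorsal control, and 4 of 6, among them the haemoglobin genes Hba-a1 and Hba-a2, had 0 reads in all 15 libraries. Border macrophage genes ran from 4.17 to 11.4 CPM in dorsal knockdown and from 4.61 to 14.3 CPM in dorsal control. Choroid plexus genes ran from 165 to 451 and from 140 to 697 CPM, and reached 19810 CPM in ventral control 4. Meningeal fibroblast genes ran from 54.9 to 334 and from 35.5 to 318 CPM. Dendritic cell genes ran from 15.2 to 18.7 and from 10.99 to 16.99 CPM. In each of these 5 lists the dorsal arms overlapped.

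**Figure D4:**
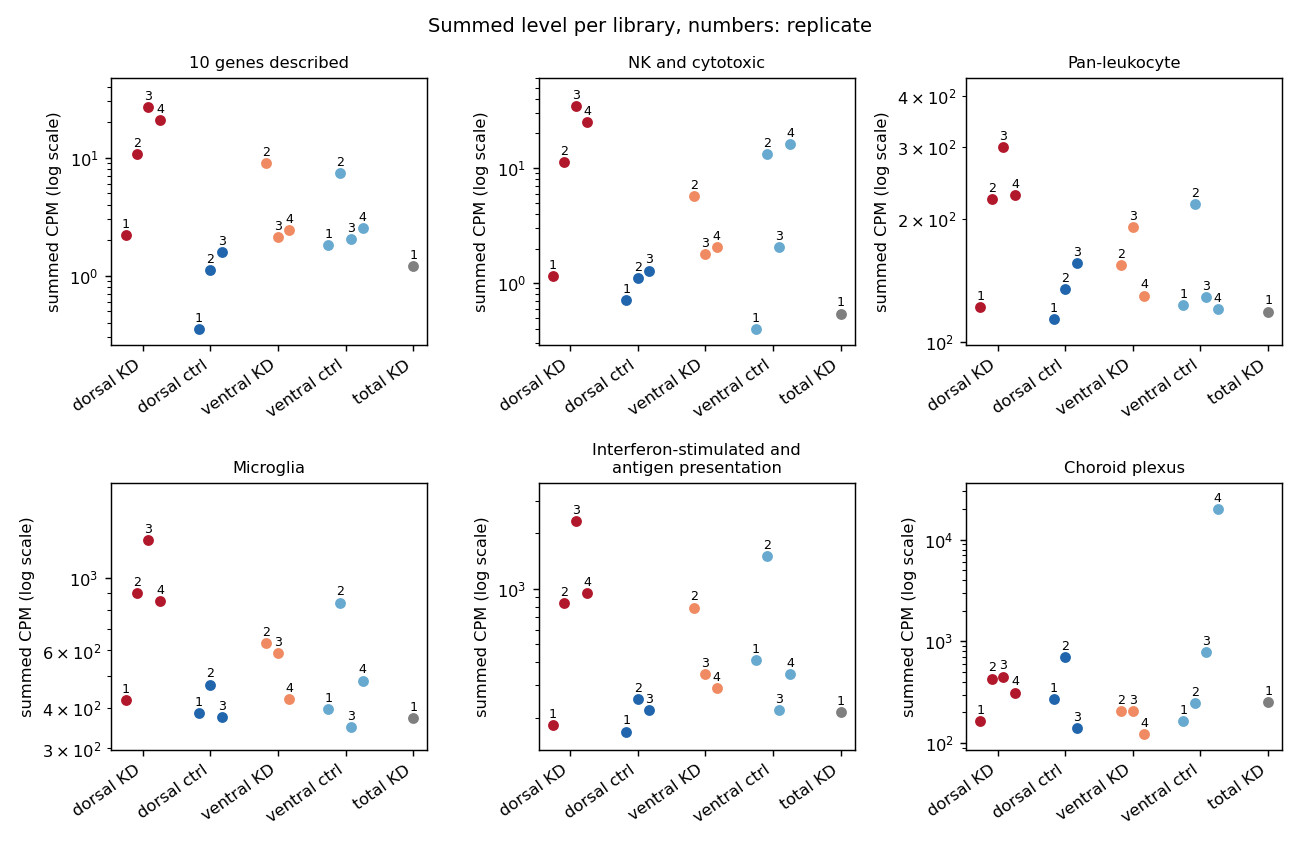
Summed CPM (log scale) of the 10 genes and of 5 marker lists in each library, with replicate numbers beside the points. Dorsal knockdown 2, 3 and 4, ventral knockdown 2 and ventral control 2 are the 5 highest for the 10 genes, for microglia and for interferon genes, while choroid plexus genes are highest in ventral control 4.

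Acss2 was set beside the 10 genes in the libraries where they were high. Dorsal knockdown 1 to 4 held 36.0, 48.3, 18.3 and 19.4 CPM of Acss2 beside 2.20, 10.8, 27.0 and 20.9 CPM of the 10 genes. Ventral knockdown 2 had 30.4 CPM of Acss2 beside 8.95 CPM of the 10 genes, and ventral control 2 had 60.5 CPM beside 7.42 CPM. Dorsal knockdown 3 and 4 and ventral knockdown 2, the 3 libraries lowest in Acss2, were thus among the 5 highest for the 10 genes, and so were dorsal knockdown 2 and ventral control 2, with more Acss2. The part of Acss2 in these levels was not tested.

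The genes whose level across the 15 libraries was most like that of Jchain were Cd68, Rasal3, Cmklr1, Ccl5 and Cd14, with Pearson's r of log2 CPM from 0.860 to 0.890. For Ly9 they were Ccl5, Ifi27l2a, Itgax, Cst7 and Ddx58, with r from 0.929 to 0.947. Cd68 and Cd14 are known from macrophages and microglia, and Ifi27l2a and Ddx58 are interferon-induced. Jchain and Ly9 correlated with each other at r = 0.843. Among all tested genes Ly9 ranked 9 for Jchain, and Jchain ranked 110 for Ly9. These values describe 15 libraries that share the same separation into 5 high and 10 low ones.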

How the data were processed

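RNA-seq libraries of mouse hippocampus were made with a directional kit, per the labels' protocols. A table of raw read counts for 24498 genes and 21 libraries was deposited, with 5 summary lines. STAR 2.5.2a, HTSeq 0.6.1p1 and mm10 are named in the submitters' processing notes. Whether counting used strand is not stated there. All sample columns were used. Summary lines stayed out of library sizes.

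Groups came from the sample titles. The members and gene lists were chosen with earlier results of these data known. CPM was computed from gene reads without scaling. Zero counts were given limits of 3 reads, shares exact Clopper-Pearson intervals at 95%. These cover counting error only, since reads carry no molecular identifiers.

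The fit used edgeR 4.0.16 in R 4.3.3 (quasi-likelihood, filterByExpr with a minimum count of 10, TMM, robust) on 14 dorsal and ventral ethanol libraries with over 1000000 gene reads, with 4 group means and Benjamini-Hochberg adjustment over 14578 genes at 0.05. Jchain and Ly9 passed the filter and 8 members did not. DESeq2 1.42.0 was an alternative. The script was tested on simulated counts. Ventral single-gene tests were exact permutation tests, unadjusted. Likeness used log2 CPM with a prior count of 1, naming the 5 most alike genes without predicted or clone names. Up to 4 genes per list were named by mean CPM. Positions and exon lengths came from GENCODE M21 on the same build. Alternatives were RLE scaling, no filter, the replicate block, only the 2 groups compared, all 20 dorsal and ventral libraries, other library sizes, other detection limits and leaving out single libraries.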

Additional observations from a re-analysis of the deposited data

Results flagged for a closer look

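In ventral control 2, Ly9 stood at 3.71 CPM, Cd8a at 0.856 CPM and the sum of the 10 genes at 7.42 CPM, each above the other 3 ventral controls. Cd8a there rested on 3 reads, against 1 in each of the others. Cd3d in ventral control 4 stood at 0.110 CPM, from 1 read, with 0 in the other ventral controls. These 4 marks came from 22 checks of groups of 4 libraries. They are not separate, since the sum holds Ly9 and Cd8a, and how often chance gives such marks at counts this low was not worked out. Ventral control 2 was also highest of its group for interferon and antigen presentation genes, at 1498 CPM, and their part in these values was not tested. In the untreated libraries, which entered no comparison, dorsal knockdown 1 held 4 reads of the 10 genes among 93311 gene reads, while the untreated controls held 0 and 4 reads among 115467 and 221847.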

How the results depend on the processing

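In the ventral comparison the count of called genes was 0 by edgeR and 35 with DESeq2, 1 with all 20 libraries, and 0 to 8 without single libraries, the 8 arising without ventral control 1. Jchain and Ly9 were called under none of these settings. That says little about them, since they passed the filter through the dorsal knockdown libraries and few or no genes were called at all. The other members mostly missed the filter and were fitted together only without it, where 0 of 19775 genes were called. The ventral Ly9 log2 fold change turned to -0.51 without ventral knockdown 2 and reached 1.75 without ventral control 2. The replicate block left 0 called genes, with 0.73 for Jchain and 0.04 for Ly9. Same-numbered ventral libraries correlated at 0.22, -0.05 and 0.19 in their deviations from group means, so the numbers were not taken as pairs. In the dorsal comparison the log2 fold change ran from 3.75 to 4.62 for Jchain and from 4.91 to 7.94 for Ly9 without single libraries. The summed mean of the 10 genes ran from 11.3 to 19.6 CPM in dorsal knockdown, from 0.733 to 1.35 in dorsal control, from 2.28 to 5.70 in ventral knockdown and from 2.13 to 4.002 in ventral control. Detected pairs of gene and library numbered 33 of 40 in dorsal knockdown, 11 of 30 in dorsal control, 26 of 30 in ventral knockdown, 30 of 40 in ventral control and 5 of 10 in total hippocampus. A limit of 3 reads left 25, 4, 10, 12 and 1 of these, and equal depth 26.7, 5.98, 14.97, 19.4 and 2.33. Scaling and library size changed no direction. When the fit held the ventral groups alone, Jchain and Ly9 missed the filter and gave no value.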
